A study of Mus musculus with 18 samples.

Results

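Guidance cues of the semaphorin, Slit, netrin and ephrin families, together with their plexin, Robo, Unc5 and Eph receptors, were followed in endothelial cells (ECs) of 3 mouse breast tissues. Members were taken by gene symbol, as every listed gene of these families except Efnb2 and Ephb4, which marked 54 of the 16248 genes of the deposited table. Of these 54 genes, 41 reached 1 FPKM (fragments per kilobase of exon and scaled library size, a level per length) in at least 3 of the 18 libraries and were tested. The 41 were 16 semaphorins, 7 plexins, 1 Slit, 3 Robo receptors, 2 netrins, 1 Unc5 receptor, 4 ephrins and 7 Eph receptors. The other 13 (Efna2, Epha3, Ephb2, Ntn3, Plxnb3, Plxnc1, Robo2, Sema3e, Sema4g, Sema6c, Slit1, Slit2 and Unc5c) reached 1 FPKM in at most 1 library.

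ECs came from female mice of the FVB background, and each of the 6 groups held 3 libraries. Normal ECs were isolated from fat pads of the mammary gland in wild-type animals. MMTV-PyMT ECs were taken from the spontaneous tumours of MMTV-PyMT mice, in which the MMTV promoter drives the polyoma middle T oncogene in mammary epithelium and not in the vessels. Implanted ECs were taken from tumours in the fat pad of FVB mice. These tumours formed after tumour cells of MMTV-PyMT mice, expanded in culture, were placed there with Matrigel. Whether any ECs were carried over with the tumour cells is not given. Each tissue was injected with PBS or with cGAMP, the cyclic dinucleotide that activates the innate sensor STING, and was collected after 3 h. Ages at collection and the mouse behind each library are not given in the labels. The sort kept live CD45-negative, CD31-positive cells. The study's own legend counts 3 mice for every group, from 3 independent experiments. The labels state neither that libraries came from separate mice nor which experiment each came from. The main fit holds no term for experiment, and p-values therefore measure the spread between these libraries.

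Guidance families were first described for growing axons, and the same pairs act on vessels. Secreted class 3 semaphorins signal through neuropilin and plexin complexes and mostly repel or collapse cells, whereas membrane semaphorins of classes 4 to 7 bind plexins directly. Slits bind Robo receptors, netrins bind Unc5 receptors among others, and ephrins on one cell bind Eph receptors on the next, with signals running both ways. In endothelium these systems take part in sprouting, in the separation of arteries from veins and in barrier control.

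Sequences upstream of 3 members are shown because these genes carried the cGAMP results described further on: Sema4c rose in all 3 tissues, Sema7a rose in both tumours, and Sema6b was the only tested member whose window held one of the motifs that were searched. They are the 250 bases before the transcription start in RefSeq (GRCm38.p6), 5′ to 3′ on the strand of the gene, Sema4c at chr1:36558382-36558631 (minus), Sema7a at chr9:57939862-57940111 (plus) and Sema6b at chr17:56140344-56140593 (minus). Capitals mark a match to the core of the interferon-stimulated response element, searched as GAAA, any 2 bases, GAAA.
Sema4c: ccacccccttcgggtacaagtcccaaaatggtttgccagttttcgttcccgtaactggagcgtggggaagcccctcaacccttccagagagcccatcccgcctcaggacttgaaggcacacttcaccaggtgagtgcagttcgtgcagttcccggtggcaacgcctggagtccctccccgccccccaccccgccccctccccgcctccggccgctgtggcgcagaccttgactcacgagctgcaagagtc
Sema7a: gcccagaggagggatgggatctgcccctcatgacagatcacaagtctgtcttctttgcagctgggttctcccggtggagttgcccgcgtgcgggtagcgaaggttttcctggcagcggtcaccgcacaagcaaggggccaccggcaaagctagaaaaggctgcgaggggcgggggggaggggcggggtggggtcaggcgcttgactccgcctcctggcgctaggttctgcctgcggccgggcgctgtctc
Sema6b: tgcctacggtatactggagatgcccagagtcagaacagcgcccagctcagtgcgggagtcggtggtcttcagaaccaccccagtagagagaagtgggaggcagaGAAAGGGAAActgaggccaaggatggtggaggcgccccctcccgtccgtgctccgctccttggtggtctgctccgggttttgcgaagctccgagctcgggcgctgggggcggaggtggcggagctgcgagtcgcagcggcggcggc

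Promoter windows of 300 bases (250 before to 50 after the start) were found for 47 of the 54 members and for 35 of the 41 tested ones. Both strands were searched. The interferon-stimulated response element core stood in the windows of 1 tested member (2.86%) and of 3.99% of all 27025 genes with a window. GGG, any 2 bases, TTTCC (a form of the kappa-B site) and TTCNNNGAA (a form of the gamma-activated site) stood in 0 of the 35 tested members and in 1.89% and 9.55% of all genes. The 250 upstream bases of members were rich in G and C, with a median GC content of 64.4% and 14 CpG, against 52.4% and 6 CpG over the same bases of all windows. A match is a run of letters only and no match says only that these letters were not in the window.

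Several members lie side by side in the genome (GENCODE M21, GRCm38). Sema3a, Sema3c, Sema3d and Sema3e lie on chromosome 5, with starts from 12383385 to 17574281. Sema3b (chr9:107597674-107609229) and Sema3f (chr9:107681500-107710475) are near neighbours, as are Robo3 (chr9:37415669-37433246) and Robo4 (chr9:37401897-37415115). Of the 54 members, 11 share exon bases with another gene, and for these the counted reads are less certain. Sema4c shares 334 bases (7.3% of its exon length) with the opposite-strand gene D430040D24Rik, which stood at 1.93 to 6.76 FPKM.

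Depth was alike across libraries, but FPKM totals over all genes were not. They ran from 229024.3 (normal cGAMP 3) to 378209.9 (implanted cGAMP 1). Reads recovered from FPKM summed to between 9068064 and 12058796 per library, and the members held from 2 reads (Sema5b) to 16546 reads (Plxnd1) in a library. All 10 endothelial markers were present, with a summed level of 829 to 2006 FPKM, highest in implanted cGAMP 1. Other cell types were not absent: 7 epithelial markers summed to 270.2 to 1004 FPKM, 10 mural and fibroblast markers to 345 to 1043, 4 lymphatic endothelial markers to 18.2 to 93.4, 2 Schwann and neural markers to 6.78 to 56.2 and 7 leukocyte markers to 19.2 to 237.7 FPKM. The highest leukocyte sum belonged to implanted cGAMP 2. Fewer cells of a type and less RNA per cell cannot be told apart in such bulk libraries.

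Levels differed widely among members. Plxnd1, the endothelial receptor for Sema3e, had the highest mean over the 18 libraries (137.0 FPKM), followed by Sema7a, a semaphorin held in the membrane by a lipid anchor (125.4 FPKM). Robo4, the Robo receptor typical of endothelium, led its family at 65.6 FPKM. Efna1 led the A-type ephrins (41.3 FPKM), Epha2 the EphA receptors (25.6 FPKM), Ntn1 the netrins (23.7 FPKM), Unc5b the Unc5 receptors (22.2 FPKM), Slit3 the Slits (9.60 FPKM) and Ephb1 the EphB receptors (7.03 FPKM). Efnb1 was the one B-type ephrin left in the set (11.7 FPKM). Sema3e, Slit1 and Slit2, which are ligands of Plxnd1 and of Robo receptors, had means of 0.0864, 0.244 and 0.348 FPKM. Some tested members passed the filter through few libraries. Sema5b reached 1 FPKM in 3, all of them normal, and Robo3 in 5, all of them implanted. Sema3b did so in 5, Epha7 in 10, Sema3d in 12, Sema3a in 13 and Robo1 in 15 of the 18 libraries.

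Under PBS, tumour ECs differed from normal ECs in most members of the set. Compared with normal ECs, MMTV-PyMT ECs were higher in 10 of the 41 members, where 29.8% of all 13983 genes tested were higher, and lower in 13, where 26.6% of all genes were lower, so the shares of members called (24.4% and 31.7%) were near those of all genes. Implanted ECs were higher than normal ECs in 18 members (43.9%, against 25.0% of all genes) and lower in 13 (31.7%, against 23.6%). Between the tumours, implanted ECs were higher than MMTV-PyMT ECs in 18 members (43.9%, against 20.8% of all genes) and lower in 9 (against 24.6%). The 18 between the tumours include Robo3, which passed the filter only through implanted libraries. Both counts of 13 include Sema5b, which passed it only through normal libraries. Calls are adjusted p-values under 0.05 from limma with Benjamini-Hochberg adjustment over all tested genes, and log2 and fold values refer to log2(FPKM + 1), a scale on which changes of low genes come out too small. Members past the threshold and at least 2-fold apart numbered 9, 14 and 10 in the 3 comparisons, against 13.9%, 11.5% and 7.33% of all genes. A single call is said to hold or end over 25 alternatives (other settings, or 1 library left out; 22 for Sema5b), which do not include this 2-fold limit. The median difference of the 41 members was -0.19, 0.22 and 0.22, against 0.02, 0.01 and -0.01 over all genes tested. With equal FPKM totals in each library, the counts of higher and lower members became 9 and 21, 10 and 14, and 17 and 8, and with voom on recovered reads the last comparison gave 15 and 12. With equal totals, the median of all genes moved by -0.22 (MMTV-PyMT minus normal) and -0.23 (implanted minus normal). With voom it moved by -0.18 (implanted minus normal) and -0.16 (implanted minus MMTV-PyMT). Shares of all genes called were not counted under these scalings, so the counts of members have no share beside them.

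Secreted semaphorins held the largest tissue difference. Sema3g, a class 3 semaphorin known from arterial endothelium, stood at 172, 159 and 166 FPKM in the normal PBS libraries, at 23.2, 15.6 and 13.8 FPKM in MMTV-PyMT PBS and at 21.8, 24.97 and 26.6 FPKM in implanted PBS. All normal libraries lay far above all tumour libraries. Sema3g was 9.18-fold lower in MMTV-PyMT ECs (log2 difference -3.20, SE 0.17, adjusted p = 1.77e-09) and 6.55-fold lower in implanted ECs (log2 difference -2.71, SE 0.17, adjusted p = 5.11e-09) than in normal ECs. The tumours overlapped each other for this gene, and the small difference between them (log2 difference 0.49, SE 0.17, adjusted p = 0.0303) ended in 6 alternatives, among them those without implanted PBS 2 (0.47), implanted PBS 3 (0.43), MMTV-PyMT PBS 2 (0.42) or MMTV-PyMT PBS 3 (0.34).

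Sema3d, another secreted semaphorin, stood at 3.803, 5.44 and 4.36 FPKM in normal PBS, 1.26, 0.687 and 0.769 FPKM in MMTV-PyMT PBS and 0.909, 0.802 and 0.801 FPKM in implanted PBS. Normal libraries were the high ones and the tumour libraries overlapped. The differences from normal were -1.54 (SE 0.19) and -1.58 (SE 0.19), which voom on recovered reads put at -2.36 and -2.60. Sema3f, which repels through neuropilin-2, showed another order, with 29.6, 31.8 and 32.6 FPKM in normal PBS, 24.4, 24.4 and 20.7 FPKM in MMTV-PyMT PBS and 97.04, 109 and 81.5 FPKM in implanted PBS. Each implanted library lay above every other PBS library. Sema3f was 2.98-fold higher in implanted than in normal ECs (log2 difference 1.58, SE 0.18, adjusted p = 2.34e-06) and 3.99-fold higher than in MMTV-PyMT ECs (SE 0.18 on the log2 scale, adjusted p = 5.53e-07). Its near neighbour Sema3b was past the threshold in none of the 3 tissue comparisons by limma. Sema3a, a repellent that acts through neuropilin-1, stood at 1.01, 1.82 and 1.09 FPKM in normal PBS, 0.625, 0.286 and 0.414 FPKM in MMTV-PyMT PBS and 2.81, 2.24 and 1.89 FPKM in implanted PBS. The order was MMTV-PyMT, normal, implanted without overlap. The difference between the tumours was 1.20 (adjusted p = 0.000209), whereas that of MMTV-PyMT from normal (-0.67) ended without normal PBS 2 (-0.52, adjusted p = 0.0587) and that of implanted from normal (0.53) ended without normal PBS 1 (0.44), normal PBS 3 (0.47), implanted PBS 1 (0.42) or implanted PBS 2 (0.54). Sema3c was lower in implanted than in normal ECs (-0.79).

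**Figure D1:**
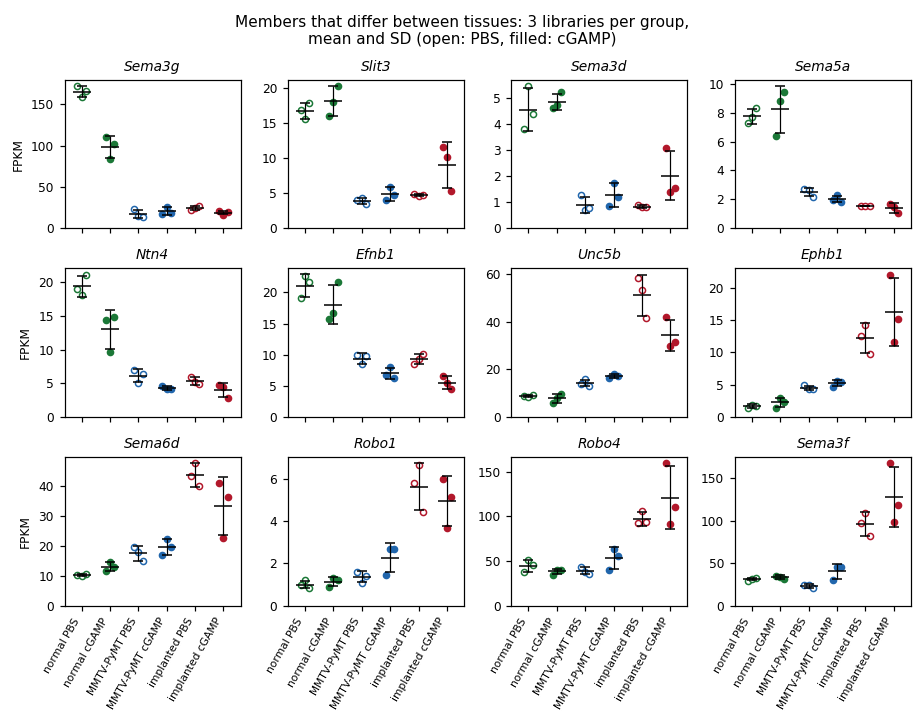
FPKM (vertical axis) of 12 members in each of the 18 libraries, by group, with open points for PBS, filled points for cGAMP, and bars for the mean and SD of 3 libraries. Among the PBS libraries, Sema3g, Slit3, Sema5a, Ntn4 and Efnb1 were highest in normal ECs, whereas Unc5b, Ephb1, Sema6d, Robo1 and Sema3f were highest in implanted ECs.

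Membrane semaphorins changed in both directions. Sema5a, a semaphorin with thrombospondin repeats, stood at 7.27, 7.703 and 8.29 FPKM in normal PBS, 2.72, 2.64 and 2.18 FPKM in MMTV-PyMT PBS and 1.58, 1.54 and 1.52 FPKM in implanted PBS. The 3 tissues followed each other without overlap, normal first and implanted last. Differences were -1.32 for MMTV-PyMT minus normal (adjusted p = 4.42e-07), -1.78 for implanted minus normal (adjusted p = 1.74e-08) and -0.46 for implanted minus MMTV-PyMT (adjusted p = 0.00759). Sema6d, a ligand of plexin-A1, ran the other way with 10.4, 9.93 and 10.6 FPKM in normal PBS, 19.7, 17.97 and 14.7 FPKM in MMTV-PyMT PBS and 43.2, 47.7 and 39.7 FPKM in implanted PBS. Again no library of one tissue reached those of the next, and implanted ECs were 3.93-fold above normal (log2 difference 1.97, SE 0.17, adjusted p = 1.35e-07) and 2.42-fold above MMTV-PyMT ECs (log2 difference 1.27, SE 0.17, adjusted p = 2.57e-05).

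Sema7a stood at 78.2, 88.6 and 84.5 FPKM in normal PBS, 63.3, 47.9 and 51.98 FPKM in MMTV-PyMT PBS and 154, 178 and 145 FPKM in implanted PBS. MMTV-PyMT libraries were lowest and implanted libraries highest, and the tumours differed by 1.53 (SE 0.17, adjusted p = 4.15e-06). Sema4c, a ligand of plexin-B2, stood at 16.02, 15.6 and 16.03 FPKM in normal PBS, 29.6, 25.1 and 25.3 FPKM in MMTV-PyMT PBS and 25.98, 24.4 and 19.7 FPKM in implanted PBS. Normal libraries were lowest. The difference from normal was 0.71 in MMTV-PyMT ECs (adjusted p = 0.000447) and 0.52 in implanted ECs (adjusted p = 0.00559), and the latter ended with equal FPKM totals (0.23, adjusted p = 0.189). Among the plexin-A ligands of class 6, Sema6a stood at 20.4, 23.5 and 21.8 FPKM in normal PBS, 19.1, 17.8 and 17.2 FPKM in MMTV-PyMT PBS and 15.02, 17.8 and 13.7 FPKM in implanted PBS, and was lower in implanted than in normal ECs (-0.48). Sema6b stood at 21.8, 27.4 and 26.9, 21.9, 21.8 and 21.7 and 27.6, 34.3 and 26.5 FPKM in the same order of groups. Its implanted libraries lay just above the MMTV-PyMT libraries, a difference (0.41) that ended without implanted PBS 2 (0.30, adjusted p = 0.0728) and with voom on recovered reads (0.27). Sema4b, with 6.24, 7.66 and 7.32 FPKM in normal PBS, 6.35, 6.77 and 8.004 FPKM in MMTV-PyMT PBS and 4.44, 3.88 and 5.77 FPKM in implanted PBS, was lowest in the implanted libraries. Its differences from normal (-0.51) and from MMTV-PyMT ECs (-0.51) both ended without implanted PBS 2 (-0.41 and -0.40), and single calls also ended without normal PBS 2 (-0.46), implanted PBS 1 (-0.48) or MMTV-PyMT PBS 3 (-0.42). Sema4d, the plexin-B1 ligand abundant in lymphocytes, was higher in MMTV-PyMT than in normal ECs (0.95) and lower in implanted than in MMTV-PyMT ECs (-0.93), and both calls were unstable. The first ended without normal PBS 2 (0.79), MMTV-PyMT PBS 1 (0.94) or MMTV-PyMT PBS 3 (0.95), and the second without implanted PBS 2 (-0.77) or any one of the MMTV-PyMT PBS libraries (-0.92 to -0.95). Sema5b was lower in both tumours (-0.76 and -0.50), but its PBS means were 1.02 FPKM at most and the second call ended without implanted PBS 2 (-0.41). All 3 libraries in which it reached 1 FPKM were normal, so it entered the test only through the tissue in which it was high.

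Among plexins, the receptors of semaphorins, implanted ECs stood above MMTV-PyMT ECs in 5 of 7 tested genes and below in 1. Over all genes tested, 20.8% were higher and 24.6% lower in this comparison. Plxnd1 stood at 89.9, 104 and 102 FPKM in normal PBS, 140.4, 123 and 111 FPKM in MMTV-PyMT PBS and 211, 256 and 185 FPKM in implanted PBS. Each implanted library exceeded all others under PBS, by 1.12 over normal (adjusted p = 4.87e-05) and 0.79 over MMTV-PyMT ECs (adjusted p = 0.00137). Plxna2, a receptor of class 3 and class 6 semaphorins, stood at 11.2, 11.4 and 11.9 FPKM in normal PBS, 9.22, 7.29 and 6.701 FPKM in MMTV-PyMT PBS and 16.8, 19.3 and 15.96 FPKM in implanted PBS. The tissues did not overlap, and the tumours differed by 1.08 (adjusted p = 0.000308). Both differences from normal (-0.53 and 0.55) ended when single libraries were left out, the first without any normal PBS library or MMTV-PyMT PBS 2 or 3 (-0.44 to -0.54) and the second without normal PBS 1, normal PBS 2 or implanted PBS 2 (0.47 to 0.54) as well as with equal FPKM totals (0.26). Plxna4, which pairs with neuropilin-1 in Sema3a receptors, stood at 6.05, 6.07 and 5.63 FPKM in normal PBS, 2.53, 2.09 and 2.15 FPKM in MMTV-PyMT PBS and 6.24, 5.78 and 6.32 FPKM in implanted PBS. MMTV-PyMT libraries were the low ones, by -1.09 against normal (adjusted p = 0.000127). Plxnb2, the Sema4c receptor, stood at 33.1, 32.9 and 30.8, 31.2, 33.1 and 31.1 and 34.6, 34.1 and 36.1 FPKM in the 3 PBS groups, with no call. Plxna3 was higher in MMTV-PyMT than in normal ECs (0.98) and lower in implanted than in MMTV-PyMT ECs (-0.73). Plxna1 and Plxnb1 were higher in implanted than in MMTV-PyMT ECs (0.68 and 0.53) and in implanted than in normal ECs (0.36 and 0.66). The first Plxnb1 difference ended without implanted PBS 1, implanted PBS 3 or MMTV-PyMT PBS 3 (0.45 to 0.48), its second with equal FPKM totals (0.39), and that of Plxna1 from normal ended without any one of the 6 libraries compared (0.32 to 0.38).

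**Figure D2:**
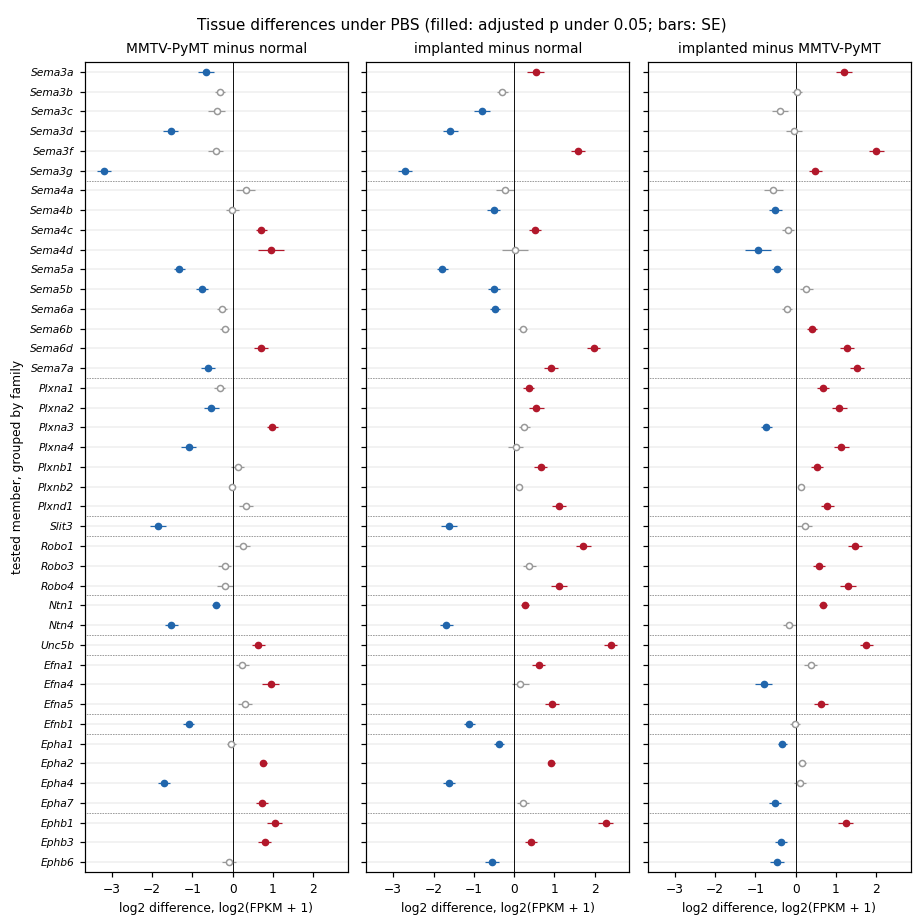
Difference of log2(FPKM + 1) between tissues under PBS (horizontal axis) for the 41 tested members (rows, grouped by family), with bars of 1 SE and filled points for an adjusted p under 0.05 by limma with Benjamini-Hochberg adjustment. In implanted minus normal ECs, differences ran from -2.71 (Sema3g) to 2.40 (Unc5b).

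Between implanted and normal ECs, Slit3 and 2 of the 3 tested Robo receptors differed in opposite directions. Between MMTV-PyMT and normal ECs, no Robo receptor had a call. Slit3, a secreted ligand of Robo receptors, stood at 16.9, 15.6 and 17.8 FPKM in normal PBS, 4.05, 4.27 and 3.503 FPKM in MMTV-PyMT PBS and 4.904, 4.65 and 4.72 FPKM in implanted PBS. Normal libraries lay above every tumour library, and Slit3 was 3.60-fold lower in MMTV-PyMT ECs (log2 difference -1.85, SE 0.19, adjusted p = 8.86e-07) and 3.08-fold lower in implanted ECs (log2 difference -1.62, SE 0.19, adjusted p = 3.73e-06). Robo1 stood at 0.959, 1.19 and 0.833 FPKM in normal PBS, 1.601, 1.09 and 1.42 FPKM in MMTV-PyMT PBS and 5.795, 6.62 and 4.42 FPKM in implanted PBS. Robo4 stood at 37.6, 51.3 and 45.3, 43.4, 38.04 and 35.6 and 92.3, 107 and 93.4 FPKM in the same groups. Only the implanted libraries stood out for both, with Robo1 3.29-fold (log2 difference 1.72, SE 0.18, adjusted p = 1.15e-06) and Robo4 2.16-fold (log2 difference 1.11, SE 0.19, adjusted p = 0.000125) above normal ECs. Against MMTV-PyMT ECs, Robo1 and Robo4 were higher in implanted ECs, by 1.47 and 1.30. Robo3 was called higher as well (0.58), but all 5 libraries in which it reached 1 FPKM were implanted. It thus entered the test only through the tissue in which it was high, and its call adds no independent support. Robo3 means stayed under 1 FPKM in all 3 PBS groups, and with a pseudocount of 0.1 its difference was 1.43.

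Netrins were lower in MMTV-PyMT than in normal ECs. Ntn4, a netrin of basement membranes, stood at 18.95, 18.03 and 21.1 FPKM in normal PBS, 6.91, 5.06 and 6.38 FPKM in MMTV-PyMT PBS and 5.98, 5.16 and 4.92 FPKM in implanted PBS. Normal libraries were well apart from both tumours, with Ntn4 2.88-fold lower in MMTV-PyMT (log2 difference -1.52, SE 0.16, adjusted p = 1.30e-06) and 3.21-fold lower in implanted ECs (log2 difference -1.68, SE 0.16, adjusted p = 4.89e-07). Ntn1 stood at 24.7, 23.5 and 26.8 FPKM in normal PBS, 18.9, 18.9 and 17.9 FPKM in MMTV-PyMT PBS and 34.4, 26.99 and 29.9 FPKM in implanted PBS. The tumours differed by 0.68 (adjusted p = 6.34e-05) and MMTV-PyMT ECs were below normal by -0.41. The small excess in implanted over normal ECs (0.27) became -0.02 with equal FPKM totals and also ended without normal PBS 1 (0.26), normal PBS 2 (0.23), implanted PBS 1 (0.18) or implanted PBS 3 (0.28). Unc5b, the netrin receptor of endothelium, held the largest excess of implanted over normal ECs among the 41 members. It stood at 8.72, 8.53 and 9.08 FPKM in normal PBS, 13.9, 15.9 and 13.2 FPKM in MMTV-PyMT PBS and 58.2, 53.3 and 41.5 FPKM in implanted PBS. The 3 tissues were apart, in the order normal, MMTV-PyMT, implanted. Implanted ECs were 5.27-fold above normal (log2 difference 2.40, SE 0.16, adjusted p = 6.30e-09) and 3.38-fold above MMTV-PyMT ECs (log2 difference 1.75, SE 0.16, adjusted p = 5.74e-07), and MMTV-PyMT ECs exceeded normal by 0.64.

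Ephrins and Eph receptors also split. Efnb1, a membrane-spanning ephrin, stood at 19.04, 22.6 and 21.6 FPKM in normal PBS, 9.97, 8.45 and 9.76 FPKM in MMTV-PyMT PBS and 8.43, 9.26 and 10.1 FPKM in implanted PBS. It was lower in both tumours than in normal ECs by similar amounts (-1.09, adjusted p = 4.82e-06, and -1.11, adjusted p = 4.53e-06). Efna1, a ligand of Epha2, stood at 37.95, 37.04 and 41.1 FPKM in normal PBS, 50.8, 43.01 and 44.5 FPKM in MMTV-PyMT PBS and 56.3, 67.3 and 55.6 FPKM in implanted PBS. Implanted libraries were highest (0.61 against normal), a call that ended with equal FPKM totals (0.31, adjusted p = 0.142). Efna5 was higher in implanted than in normal (0.94) and MMTV-PyMT ECs (0.63), and Efna4 was higher in MMTV-PyMT than in normal (0.94) and lower in implanted than in MMTV-PyMT ECs (-0.79).

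Epha4, a receptor that binds ephrins of both types, stood at 11.6, 13.2 and 11.96 FPKM in normal PBS, 3.97, 3.24 and 2.11 FPKM in MMTV-PyMT PBS and 3.03, 3.63 and 3.36 FPKM in implanted PBS. It was 3.27-fold lower in MMTV-PyMT (log2 difference -1.71, SE 0.15, adjusted p = 2.23e-07) and 3.05-fold lower in implanted ECs (log2 difference -1.61, SE 0.15, adjusted p = 4.09e-07). Epha2 ran against it, with 17.5, 17.99 and 17.9 FPKM in normal PBS, 35.8, 27.4 and 29.9 FPKM in MMTV-PyMT PBS and 32.3, 36.8 and 34.97 FPKM in implanted PBS. Every tumour library lay above every normal library, by 0.76 (adjusted p = 5.59e-06) and 0.92 (adjusted p = 7.97e-07). Ephb1 stood at 1.44, 1.92 and 1.78 FPKM in normal PBS, 4.895, 4.38 and 4.37 FPKM in MMTV-PyMT PBS and 12.6, 14.3 and 9.76 FPKM in implanted PBS. The 3 tissues were apart for this receptor of B-type ephrins, with implanted ECs 4.83-fold above normal (log2 difference 2.27, SE 0.19, adjusted p = 1.27e-07). Ephb3 stood at 3.698, 3.45 and 3.47 FPKM in normal PBS, 5.94, 6.82 and 7.95 FPKM in MMTV-PyMT PBS and 5.61, 4.81 and 4.85 FPKM in implanted PBS. Both tumours lay above normal (0.79 and 0.42), and the second call ended without normal PBS 2 (0.41), normal PBS 3 (0.41) or implanted PBS 1 (0.36), while the difference between tumours (-0.37) was lost in 17 alternatives (-0.28 to -0.43). Epha7 was higher in MMTV-PyMT than in normal (0.73) and lower in implanted than in MMTV-PyMT ECs (-0.51). Ephb6 and Epha1 were lower in implanted than in normal (-0.55 and -0.37) and MMTV-PyMT ECs (-0.46 and -0.33), and these 4 calls ended without implanted PBS 2 (-0.45, -0.31, -0.36 and -0.28). Without other single PBS libraries, the call of Ephb6 against normal also ended without normal 1 (-0.42), that of Epha1 against normal without normal 1 or 2 (-0.31 and -0.34), that of Ephb6 against MMTV-PyMT without implanted 3 or MMTV-PyMT 2 or 3 (-0.39 to -0.48), and that of Epha1 against MMTV-PyMT without implanted 3 or any MMTV-PyMT library (-0.33 to -0.36).

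Markers of other cells moved with the tissue. Mural and fibroblast markers summed to 928 to 1043 FPKM in normal PBS, to 347 to 406 FPKM in MMTV-PyMT PBS and to 449 to 454 FPKM in implanted PBS, in the direction of Slit3, Sema3d, Sema5a and Sema3g. Against normal ECs, 6 of these 10 markers were lower and 2 higher in MMTV-PyMT ECs, and 7 lower and 2 higher in implanted ECs. Of 4 lymphatic endothelial markers, 3 were lower and 0 higher in MMTV-PyMT ECs (median log2 difference -1.44). In implanted ECs 3 of them were lower and 1 higher (median -1.04). Epithelial markers summed to 330 to 417, 920 to 1004 and 387 to 574 FPKM in the same groups, and the 2 Schwann and neural markers that were listed to 13.4 to 17.8, 47.6 to 56.2 and 23.4 to 30.7 FPKM. Endothelial markers summed to 1174 to 1321, 829 to 1007 and 1215 to 1551 FPKM, and 7 of 10 were higher and 1 lower in implanted than in MMTV-PyMT ECs (median log2 difference 0.69). Their part in the differences of members was not tested.

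cGAMP changed fewer members than tissue did within 3 h. In normal ECs 3 of the 41 members rose (7.32%, against 13.7% of all genes tested) and 8 fell (19.5% against 18.2%). In MMTV-PyMT ECs 4 rose (9.76% against 7.42%) and 3 fell (7.32% against 4.57%). In implanted ECs 8 rose (19.5% against 20.3%) and 9 fell (against 18.8% of all genes). Members' shares lay on either side of those of all genes, and the median change of members was -0.05, 0.16 and -0.09 against -0.05, -0.04 and -0.01 over all genes. Members also past 2-fold numbered 2 in normal and 3 in implanted ECs, against 3.70% and 7.22% of all genes, and in MMTV-PyMT ECs, where 2.56% of all genes passed both limits, members changed by 0.81 at most on the log2 scale. With voom on recovered reads the counts of risen and fallen members were 5 and 9 in MMTV-PyMT and 6 and 21 in implanted ECs, and in implanted ECs they were 7 and 18 with equal FPKM totals and 7 and 15 with quantile normalization. The median of all genes moved by -0.15 (voom, MMTV-PyMT), by -0.33 (voom, implanted) and by -0.20 (equal totals, implanted). Shares of all genes called under these scalings were not counted, so these counts cannot be set against them. Only Sema4c rose, and only Ephb3 and Plxnb2 fell, past the threshold in all 3 tissues.

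Sema4c, the membrane semaphorin that binds plexin-B2, showed the largest rise in normal and implanted ECs. It went from 16.02, 15.6 and 16.03 FPKM in normal PBS to 44.1, 48.4 and 50.9 FPKM in normal cGAMP. In MMTV-PyMT ECs it went from 29.6, 25.1 and 25.3 to 35.8, 39.6 and 36.8 FPKM, and in implanted ECs from 25.98, 24.4 and 19.7 to 94.1, 58.1 and 65.6 FPKM. No cGAMP library overlapped with the PBS libraries of its tissue. The rise was 2.89-fold in normal ECs (log2 difference 1.53, SE 0.14, adjusted p = 9.70e-07), 2.98-fold in implanted ECs (log2 difference 1.58, SE 0.14, adjusted p = 2.07e-07) and 1.39-fold in MMTV-PyMT ECs (log2 difference 0.48, SE 0.14, adjusted p = 0.0350). The last call ended with equal FPKM totals (0.42, adjusted p = 0.0672) and without MMTV-PyMT PBS 2 (0.44), PBS 3 (0.44), cGAMP 2 (0.44) or cGAMP 3 (0.49), whereas the others held in all 25 alternatives and with the 2-fold limit. The effect of cGAMP on Sema4c was itself smaller in MMTV-PyMT than in normal (log2 difference -1.05, SE 0.20, adjusted p = 0.00546) and larger in implanted than in MMTV-PyMT ECs (log2 difference 1.10, SE 0.20, adjusted p = 0.00192). Its receptor Plxnb2 went the other way in all 3 tissues, from the PBS values above to 21.8, 23.8 and 22.1 FPKM in normal, 26.97, 25.9 and 24.6 FPKM in MMTV-PyMT and 30.01, 32.9 and 27.3 FPKM in implanted cGAMP libraries. The falls were -0.50 (adjusted p = 0.000101), -0.29 (adjusted p = 0.0149) and -0.21 (adjusted p = 0.0271), of which the MMTV-PyMT call ended without MMTV-PyMT PBS 2 (-0.26), cGAMP 2 (-0.29) or cGAMP 3 (-0.26) and the implanted call without implanted PBS 1 (-0.22), PBS 3 (-0.19), cGAMP 1 (-0.21) or cGAMP 3 (-0.15).

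**Figure D3:**
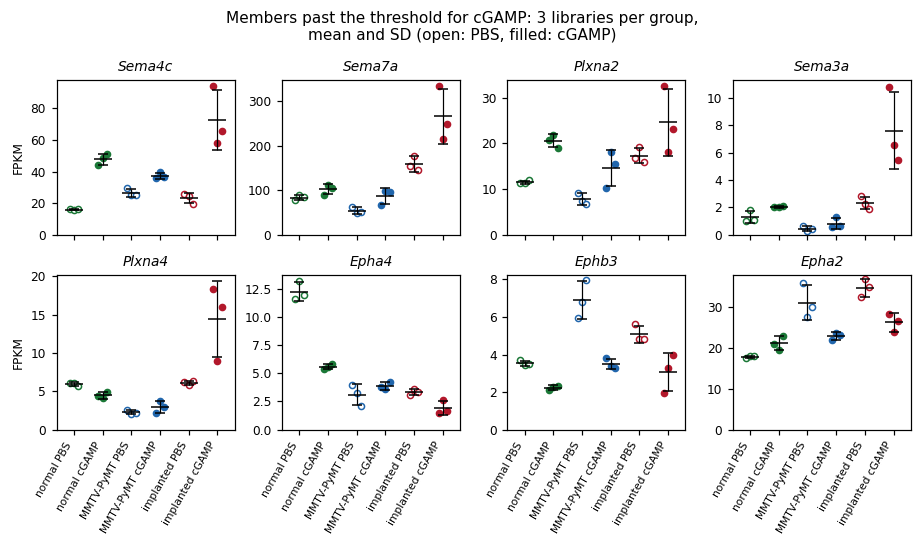
FPKM (vertical axis) of 8 members that passed the threshold for cGAMP in at least 1 tissue, in each of the 18 libraries by group, with open points for PBS, filled points for cGAMP, and bars for the mean and SD of 3 libraries. Sema4c rose from 15.6 to 16.0 FPKM under PBS to 44.1 to 50.9 FPKM under cGAMP in normal ECs, and Epha4 fell only in normal and implanted ECs.

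Plxna2 went from 11.2, 11.4 and 11.9 to 20.8, 21.8 and 19.0 FPKM in normal, from 9.22, 7.29 and 6.701 to 10.2, 18.04 and 15.5 FPKM in MMTV-PyMT and from 16.8, 19.3 and 15.96 to 32.6, 18.04 and 23.2 FPKM in implanted ECs. cGAMP libraries were above PBS libraries in normal and MMTV-PyMT ECs, with rises of 0.78 (adjusted p = 0.00539) and 0.81 (adjusted p = 0.0105), and overlapped in implanted ECs (0.45, adjusted p = 0.07399). The rise in MMTV-PyMT ECs ended without MMTV-PyMT PBS 3 (0.73, adjusted p = 0.0586) or cGAMP 2 (0.65, adjusted p = 0.0704). Ephb3 fell from 3.698, 3.45 and 3.47 to 2.13, 2.26 and 2.34 FPKM in normal, from 5.94, 6.82 and 7.95 to 3.79, 3.39 and 3.31 FPKM in MMTV-PyMT and from 5.61, 4.81 and 4.85 to 1.95, 3.28 and 3.99 FPKM in implanted ECs. All cGAMP libraries lay below the PBS libraries of their tissue, with changes of -0.49 (adjusted p = 0.0189), -0.81 (adjusted p = 0.00145) and -0.61 (adjusted p = 0.00348). The call in normal ECs ended without normal PBS 1 or normal cGAMP 1 (-0.46 for each).

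In normal ECs, 4 receptors and 4 ligands fell. Epha4 fell from 11.6, 13.2 and 11.96 to 5.35, 5.56 and 5.83 FPKM, a 2.01-fold change (SE 0.15 on the log2 scale, adjusted p = 0.000164). Efna1 fell from 37.95, 37.04 and 41.1 to 20.6, 18.6 and 22.6 FPKM (log2 difference -0.88, SE 0.16, adjusted p = 0.000665), and Sema3g from 172, 159 and 166 to 110, 83.5 and 102 FPKM (log2 difference -0.75, SE 0.17, adjusted p = 0.003699). For all 3 genes the cGAMP libraries lay clear below the PBS libraries, and the calls held in all 25 alternatives, but Efna1 and Sema3g missed the 2-fold limit. Plxnd1 fell from 89.9, 104 and 102 to 50.7, 71.0 and 72.7 FPKM (log2 difference -0.61, SE 0.17, adjusted p = 0.0115) and Ntn4 from 18.95, 18.03 and 21.1 to 14.4, 9.69 and 14.8 FPKM (log2 difference -0.56, SE 0.16, adjusted p = 0.0151). Sema6a fell from 20.4, 23.5 and 21.8 to 14.1, 15.6 and 19.4 FPKM (log2 difference -0.41, SE 0.13, adjusted p = 0.0226). These 3 did not overlap with PBS either, but their calls ended when 1 library was left out, for Plxnd1 without normal cGAMP 1 (-0.45), for Ntn4 without normal PBS 3 (-0.50) or cGAMP 2 (-0.38), and for Sema6a without normal PBS 2 (-0.36), PBS 3 (-0.41), cGAMP 1 (-0.32) or cGAMP 2 (-0.38). Epha1 rose by 0.35, a call that ended without normal PBS 2 (0.38), PBS 3 (0.26), cGAMP 2 (0.38) or cGAMP 3 (0.22). Slit3 (16.1, 18.04 and 20.4 FPKM under cGAMP), Ntn1 (26.7, 20.8 and 23.5 FPKM) and Robo4 (34.7, 40.1 and 39.97 FPKM) had no call.

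In MMTV-PyMT ECs, 3 semaphorins and Plxna2 rose, and 2 Eph receptors and Plxnb2 fell. Sema3f went from 24.4, 24.4 and 20.7 to 29.9, 45.4 and 45.8 FPKM, a rise of 0.75 (SE 0.18, adjusted p = 0.0105). Sema7a went from 63.3, 47.9 and 51.98 to 65.9, 97.7 and 96.7 FPKM (log2 difference 0.65, SE 0.17, adjusted p = 0.0186). In both genes cGAMP 1 was the lowest of its group and lay just above the PBS libraries. The Sema3f call ended without MMTV-PyMT PBS 3 (0.68), cGAMP 2 (0.66) or cGAMP 3 (0.65), and the Sema7a call without PBS 2 (0.57), PBS 3 (0.62), cGAMP 2 (0.56) or cGAMP 3 (0.56). Epha2 fell from 35.8, 27.4 and 29.9 to 21.8, 23.6 and 23.2 FPKM (log2 difference -0.42, SE 0.09, adjusted p = 0.00791), with no overlap and in all 25 alternatives, but short of the 2-fold limit. By limma, the number of risen members was 0 without MMTV-PyMT PBS 3 or cGAMP 2, 1 without cGAMP 3, 2 without PBS 2 and 7 without cGAMP 1, so it rested on single libraries. Endothelial markers summed to 888 FPKM in MMTV-PyMT cGAMP 1 and to 1211 and 1077 FPKM in the other cGAMP libraries, and their part in these rises was not tested.

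Of the 3 tissues, implanted ECs had the most members past the threshold for cGAMP. The shares that rose (19.5%) and fell (22.0%) were near those of all genes (20.3% and 18.8%). Sema3a rose from 2.81, 2.24 and 1.89 to 10.8, 6.57 and 5.46 FPKM, 2.53-fold (log2 difference 1.34, SE 0.20, adjusted p = 7.11e-05), and its receptor Plxna4 from 6.24, 5.78 and 6.32 to 18.4, 8.93 and 15.99 FPKM, 2.09-fold (log2 difference 1.06, SE 0.19, adjusted p = 0.000274). The lowest cGAMP library exceeded the highest PBS library for both, and both calls held in all 25 alternatives and with the 2-fold limit. Slit3 rose from 4.904, 4.65 and 4.72 to 11.6, 10.3 and 5.29 FPKM (log2 difference 0.74, SE 0.19, adjusted p = 0.00572), with cGAMP 3 close to the PBS level. Sema7a rose from 154, 178 and 145 to 334, 215 and 249.8 FPKM (log2 difference 0.72, SE 0.17, adjusted p = 0.00296), a call that ended with quantile normalization (0.17, adjusted p = 0.372). Sema3d went from 0.909, 0.802 and 0.801 to 3.09, 1.38 and 1.56 FPKM (0.67), and without implanted cGAMP 1 its change was 0.43 (adjusted p = 0.0596). Sema4b went from 4.44, 3.88 and 5.77 to 6.59, 10.4 and 6.97 FPKM (0.64), with its highest value in cGAMP 2, and the call ended with voom on recovered reads (0.42). The smaller rise of Plxna1 (0.40) ended under each other scaling (0.10 to 0.17) and without implanted PBS 1 (0.38), PBS 2 (0.38) or cGAMP 1 (0.22). Mural and fibroblast markers summed to 887 and 888 FPKM in implanted cGAMP 1 and 2 and to 408 FPKM in cGAMP 3, the order seen for Slit3, and their part was not tested. Implanted cGAMP 1 held the highest value of Sema4c, Sema3a, Sema7a, Plxna2, Plxna4, Sema3f and Robo4 and also the highest endothelial sum (2006 FPKM). The same library had the highest FPKM total over all genes (378209.9) and the highest FPKM for a read on 1 kb (0.1196). The part of these features was likewise not tested.

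**Figure D4:**
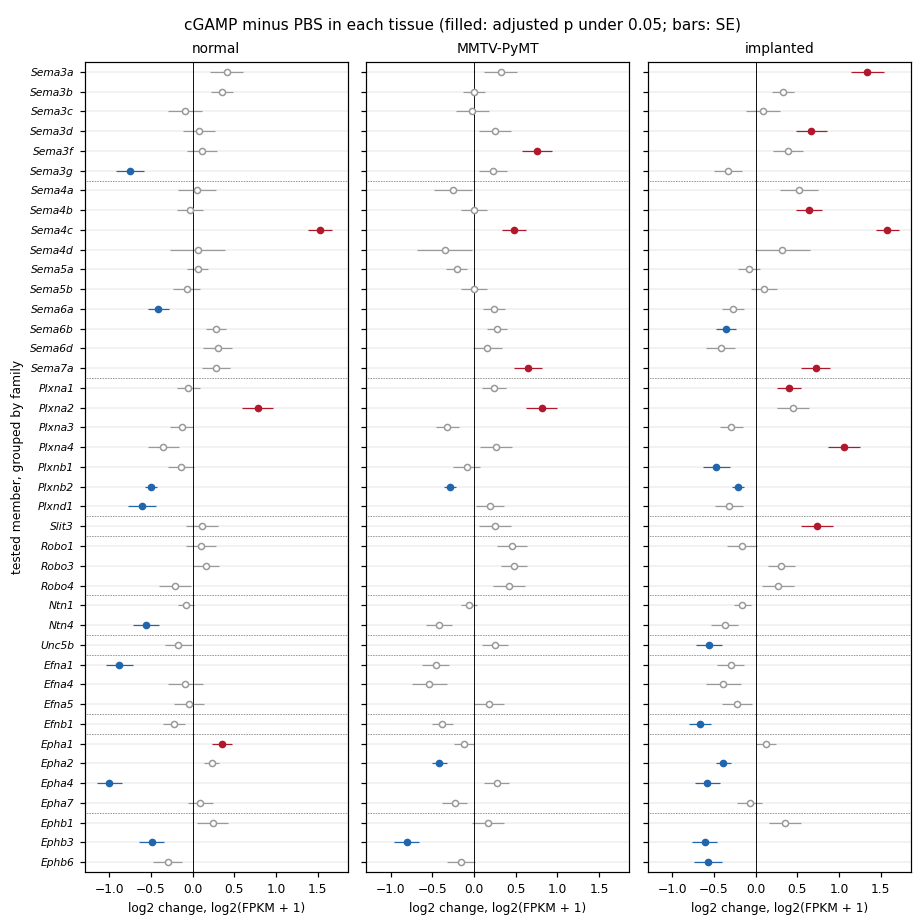
Difference of log2(FPKM + 1) between cGAMP and PBS (horizontal axis) for the 41 tested members (rows, grouped by family) in each tissue, with bars of 1 SE and filled points for an adjusted p under 0.05 by limma with Benjamini-Hochberg adjustment. Sema4c lies at 1.53 in normal ECs, at 0.48 in MMTV-PyMT ECs and at 1.58 in implanted ECs.

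The 9 members that fell in implanted ECs (22.0%, against 18.8% of all genes) were Efnb1, Epha2, Epha4, Ephb3, Ephb6, Plxnb1, Plxnb2, Unc5b and Sema6b. Efnb1 fell from 8.43, 9.26 and 10.1 to 6.55, 5.44 and 4.49 FPKM (log2 difference -0.67, SE 0.13, adjusted p = 0.000798) and Epha4 from 3.03, 3.63 and 3.36 to 1.47, 2.64 and 1.69 FPKM (log2 difference -0.58, SE 0.15, adjusted p = 0.00675). Epha2 fell from 32.3, 36.8 and 34.97 to 28.3, 23.8 and 26.5 FPKM (log2 difference -0.39, SE 0.09, adjusted p = 0.00349). For these 3 the groups were apart and the calls held in all 25 alternatives, with larger changes under voom (-1.09, -1.16 and -0.72), but missed the 2-fold limit. Unc5b went from 58.2, 53.3 and 41.5 to 41.7, 29.8 and 31.4 FPKM (log2 difference -0.56, SE 0.16, adjusted p = 0.00955). Its groups overlapped in 1 library and the call ended without implanted PBS 1 (-0.46, adjusted p = 0.0512). Sema6b, the one semaphorin that fell, went from 27.6, 34.3 and 26.5 to 25.1, 20.5 and 22.1 FPKM (-0.36), and its call ended without implanted PBS 2 (-0.25), cGAMP 2 (-0.30) or cGAMP 3 (-0.35). Ephb6 fell by 0.57 and Plxnb1 by 0.47 on the log2 scale. Plxnb1 overlapped between the groups. The call for Ephb6 ended without implanted PBS 1 (-0.49) or cGAMP 1 (-0.42), and that for Plxnb1 without PBS 1 (-0.39), PBS 3 (-0.41) or cGAMP 1 (-0.28).

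Some members with large tissue differences gave no cGAMP call in implanted ECs. Under cGAMP the 3 implanted libraries held 21.2, 16.8 and 19.7 FPKM of Sema3g, 1.702, 1.46 and 1.07 FPKM of Sema5a and 4.76, 4.42 and 2.80 FPKM of Ntn4. These values overlapped with or lay just below those under PBS. Ephb1 stood at 21.9, 11.6 and 15.1 FPKM, Sema6d at 40.8, 22.5 and 36.3 FPKM and Robo1 at 5.99, 3.66 and 5.14 FPKM. Robo4 stood at 160.3, 91.6 and 111 FPKM, Sema3f at 168, 98.3 and 118 FPKM and Plxnd1 at 202, 138 and 181 FPKM. For all 6, every implanted cGAMP library lay above every normal PBS library. Efna1 stood at 56.7, 34.7 and 57.02, Sema6a at 14.7, 10.4 and 13.1 and Ntn1 at 26.5, 25.9 and 28.7 FPKM, with cGAMP 2 the lowest of its group for each.

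The other groups under cGAMP followed their tissue. In normal cGAMP libraries Sema3d stood at 4.59, 4.71 and 5.19, Sema5a at 6.40, 8.81 and 9.45 and Efnb1 at 15.8, 16.7 and 21.6 FPKM, with no call. Unc5b stood at 5.87, 7.86 and 9.84, Ephb1 at 1.47, 2.92 and 2.38, Robo1 at 0.878, 1.29 and 1.23 and Sema3f at 35.4, 34.1 and 31.8 FPKM. Sema6d stood at 11.6, 14.5 and 12.8, Sema7a at 90.1, 113 and 104, Sema3a at 1.99, 2.02 and 2.103 and Epha2 at 20.9, 19.5 and 22.95 FPKM, with every library above the PBS range and no call. Sema4b (7.53, 6.31 and 6.797 FPKM) and Sema6b (28.6, 28.2 and 36.5 FPKM) had no call, and Plxna4 (4.33, 4.08 and 4.96 FPKM) lay below its PBS libraries with an adjusted p of 0.168. In MMTV-PyMT cGAMP libraries Sema3g stood at 16.95, 25.98 and 18.6, Slit3 at 4.02, 5.93 and 4.81, Sema3d at 0.859, 1.74 and 1.21 and Sema5a at 1.97, 2.29 and 1.84 FPKM. Ntn4 stood at 4.61, 4.12 and 4.17, Ntn1 at 19.5, 17.6 and 16.4, Epha4 at 3.82, 3.56 and 4.22 and Efnb1 at 6.68, 8.05 and 6.33 FPKM. With either injection, every MMTV-PyMT library lay below every normal PBS library for these 8 genes. Unc5b stood at 16.3, 17.99 and 17.1, Ephb1 at 4.65, 5.61 and 5.46, Sema6d at 16.8, 22.4 and 19.5 and Robo1 at 1.46, 2.69 and 2.67 FPKM in the same libraries. Robo4 stood at 39.9, 63.95 and 55.8, Plxnd1 at 119, 153 and 156 and Efna1 at 28.4, 39.2 and 32.7 FPKM. Sema3a stood at 0.585, 1.26 and 0.604, Sema4b at 8.74, 6.04 and 6.43, Sema6a at 19.6, 22.3 and 22.6, Sema6b at 24.1, 26.98 and 28.7 and Plxna4 at 2.22, 3.69 and 2.91 FPKM. None of these genes passed the threshold for cGAMP in MMTV-PyMT ECs by limma.

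The response itself differed between tissues for a few members. Compared with normal ECs, MMTV-PyMT ECs had a higher cGAMP effect in 4 members and a lower one in 2, against 5.48% and 2.90% of all genes. Implanted ECs had a higher effect than normal ECs in 2 members and a lower one in 3 (12.5% and 6.09% of all genes), and a higher effect than MMTV-PyMT ECs in 2 members and a lower one in 3 (7.34% and 3.72%). Members past the threshold and 2-fold numbered 2, 1 and 2, against 1.75%, 4.68% and 2.47% of all genes. The counts were 1 and 2, 1 and 5, and 1 and 4 with equal FPKM totals and 2 and 2, 1 and 5, and 1 and 8 with voom, and with quantile normalization the last was 2 and 7. With the replicate block the first was 2 and 2, and with a pseudocount of 0.1 the other comparisons gave 1 and 3 each. Medians of all genes moved by -0.11 to -0.31 under voom in these 3 comparisons. For these alternatives, shares of all genes called in each direction were not counted.

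Epha4 fell with cGAMP in normal and implanted but not in MMTV-PyMT ECs, where it went from 3.97, 3.24 and 2.11 to 3.82, 3.56 and 4.22 FPKM. The effect was higher in MMTV-PyMT than in normal ECs (log2 difference 1.27, SE 0.22, adjusted p = 0.00321) and lower in implanted than in MMTV-PyMT ECs (log2 difference -0.85, SE 0.22, adjusted p = 0.0178). Epha2 rose in no tissue past the threshold and fell in both tumours, with effects below normal by -0.65 in MMTV-PyMT (adjusted p = 0.00829) and -0.62 in implanted ECs (adjusted p = 0.003796). Plxna4 had the largest difference of effect, implanted against normal ECs (log2 difference 1.41, SE 0.26, adjusted p = 0.00151). Calls of Epha4, Epha2, Plxna4 and Sema4c held in all 25 alternatives. Of these, both Epha2 differences and that of Epha4 between the tumours missed the 2-fold limit.

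The effect on Sema6b in implanted ECs lay below that in normal (-0.65) and in MMTV-PyMT ECs (-0.64), and the second call ended without implanted PBS 2 (-0.53) or MMTV-PyMT cGAMP 3 (-0.58). Sema3g had a higher effect in MMTV-PyMT than in normal ECs (0.98), where the PBS level in the tumour was already low, and the call ended without normal PBS 3 (0.98), normal cGAMP 2 (0.87), MMTV-PyMT PBS 2 (0.91), PBS 3 (0.83) or cGAMP 2 (0.80). Sema3a had a higher effect in implanted than in normal (0.92) and MMTV-PyMT ECs (1.02), Unc5b a lower effect in implanted than in MMTV-PyMT ECs (-0.81), Plxnd1 (0.80) and Sema6a (0.65) a higher effect in MMTV-PyMT than in normal ECs, and Sema6d a lower effect in implanted than in normal ECs (-0.72). Each of these 6 differences was lost in 8 or more alternatives, most of which left out 1 library, and the Sema6d value was -0.47 without implanted cGAMP 2.

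Implanted cGAMP 2 stood apart in leukocyte markers. Their sum was 237.7 FPKM there and 57.5 and 50.4 FPKM in the other implanted cGAMP libraries, with Ptprc at 9.24, Cd3e at 6.29, Csf1r at 20.07 and Lyz2 at 151.7 FPKM. The same library held the highest level of Sema4d (13.3 FPKM), Sema4a (5.08 FPKM) and Plxnc1 (1.69 FPKM), guidance genes that leukocytes also use, and of Sema4b (10.4 FPKM). Without it, Sema4c rose by 1.72, Sema3a by 1.41, Plxna4 by 1.35, Sema7a by 0.86, Slit3 by 0.63 (adjusted p = 0.0261) and Sema4b by 0.46 (adjusted p = 0.0266) in implanted ECs. Plxna2 (0.64), Sema3f (0.56), Ephb1 (0.56) and Efna4 (-0.58) then passed the threshold and Sema6b (-0.30) did not. Sema4d changed by -0.20 without this library.

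**Figure D5:**
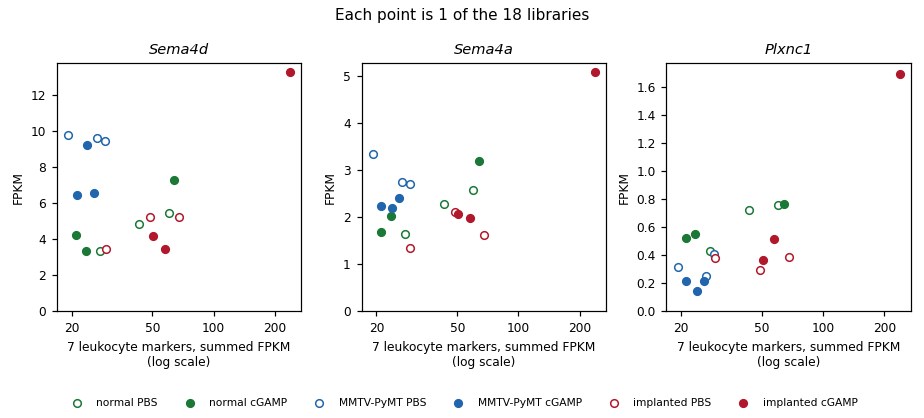
FPKM of Sema4d, Sema4a and Plxnc1 (vertical axes) against the summed FPKM of 7 leukocyte markers (horizontal axis, log scale), with 1 point per library, open for PBS and filled for cGAMP. Implanted cGAMP 2 is the single library with a marker sum above 200 FPKM and is the highest point in each panel.

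Other genes of the pathways were taken from a fixed list. Of 11 tested co-receptors and related genes, 3 fell with cGAMP in normal ECs (Efnb2, Rgmb and L1cam), 1 fell in MMTV-PyMT ECs (Rgma), and 2 rose and 4 fell in implanted ECs, with median changes of -0.28, 0.02 and -0.30 (all genes -0.05, -0.04 and -0.01). Efnb2, the arterial ephrin, fell by 0.72 in normal and by 0.56 in implanted ECs on the log2 scale, and Flrt3, a membrane partner of Unc5 receptors, fell by 1.40 in implanted ECs. Flrt2, a relative of Flrt3, rose by 0.83 in implanted ECs. Under PBS the neuropilin Nrp1 was lower in MMTV-PyMT than in normal ECs (-1.01), and Nrp1, Nrp2 and Efnb2 were higher in implanted than in MMTV-PyMT ECs (0.85, 0.50 and 1.61). Ephb4, the venous receptor of Efnb2, passed the threshold in no comparison of tissues under PBS or of cGAMP with PBS by limma. Of 31 tested cytosolic effectors, the numbers that rose and fell with cGAMP were 2 and 6 in normal ECs, 4 and 1 in MMTV-PyMT ECs and 8 and 7 in implanted ECs. Over all genes tested the shares that rose and fell were 13.7% and 18.2%, 7.42% and 4.57%, and 20.3% and 18.8%.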

How the data were processed

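RNA-seq of sorted ECs was analysed in 18 libraries (6 groups of 3). According to the study, a strand-preserving kit (NEBNext Ultra II directional) and paired-end NextSeq sequencing were used, and per the labels reads were handled with FastQC, STAR 2.7 and HTSeq on mm10. Whether counting used the strand, and how FPKM were computed, is not given in the sources used here. The authors deposited 1 table of FPKM values for 16248 genes, with 0 values at 0, so that a gene had to be detected in every library to be listed. Of its columns, 12 name the tumour and 6 name only the injection. These 6 were taken as normal fat pad, the only tissue left. With exon lengths of GENCODE M21 the FPKM gave whole reads (within 0.01 reads by length or 0.02 by the smallest step) for 99.94% of genes, and for all 54 members. The deposited values were not scaled to equal totals, and a read on 1 kb was worth 0.0753 to 0.1196 FPKM. Reads carry no molecular identifiers.

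Genes with at least 1 FPKM in at least 3 libraries (13983) were tested on log2(FPKM + 1) with limma 3.58.1 (lmFit, contrasts.fit, eBayes with trend, 2-sided) in R 4.3.3, with 1 mean per group over all 18 libraries, 9 comparisons, and Benjamini-Hochberg adjustment over all tested genes (threshold 0.05). The script was tested on simulated data. Alternatives were a pseudocount of 0.1, no low-value filter, a 2-fold limit, quantile normalization, equal FPKM totals, a replicate block, voom on recovered reads, no trend, and leaving out each library. Library values were printed for up to 8 members with the largest change in each comparison and for the highest member of each family (27 in all). The other members past the threshold are named with their change. The members, the gene lists and the tests were chosen with earlier results of these data known. Replicate pairs differed by more than sampling noise (chi-square per gene 4.07 to 31.15), so they were more than repeat counts of 1 library. This check cannot show that libraries came from separate mice. Each library was counted as 1 replicate. Figures were drawn with matplotlib 3.10.9.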

Additional observations from a re-analysis of the deposited data

Results flagged for a closer look

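The effect of cGAMP differed between tissues in 16 results by an interaction contrast of limma with Benjamini-Hochberg adjustment. Values are differences of log2(FPKM + 1) changes, and each comparison shares its PBS and cGAMP libraries with the others.

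For MMTV-PyMT minus normal ECs they were Epha4 1.27 (SE 0.22, adjusted p = 0.00321), Sema4c -1.05 (SE 0.20, adjusted p = 0.00546) and Epha2 -0.65 (SE 0.13, adjusted p = 0.00829), which held in 25 alternatives, with Epha2 under the 2-fold limit. Sema3g was 0.98 (adjusted p = 0.0223) and 0.80 to 0.98 without the 5 libraries that ended its call. Sema6a was 0.65 (adjusted p = 0.0379) and 0.55 to 0.65 without normal PBS 2 or 3, normal cGAMP 1 or 2, MMTV-PyMT PBS 2 or 3 or MMTV-PyMT cGAMP 2 or 3. Plxnd1 was 0.80 (adjusted p = 0.0485) and 0.64 to 0.88 in the 18 alternatives that ended its call, among them those without any one normal PBS library.

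For implanted minus normal ECs they were Plxna4 1.41 (SE 0.26, adjusted p = 0.00151), Sema6b -0.65 (SE 0.17, adjusted p = 0.0147) and Epha2 -0.62 (SE 0.13, adjusted p = 0.0038), which held in 25 alternatives, with Sema6b and Epha2 under the 2-fold limit. Sema3a was 0.92 (adjusted p = 0.0335) and 0.67 to 0.94 without normal PBS 2, any normal cGAMP library, implanted PBS 2 or 3 or implanted cGAMP 1. Sema6d was -0.72 (adjusted p = 0.0483) and -0.47 to -0.78 in the 15 alternatives that ended its call, with -0.47 without implanted cGAMP 2.

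For implanted minus MMTV-PyMT ECs they were Sema4c 1.10 (SE 0.20, adjusted p = 0.00192) and Epha4 -0.85 (SE 0.22, adjusted p = 0.0178), which held in 25 alternatives, with Epha4 under the 2-fold limit. Sema3a was 1.02 (adjusted p = 0.0297) and 0.77 to 1.03 without implanted PBS 2 or 3, implanted cGAMP 1, MMTV-PyMT PBS 1 or 3 or MMTV-PyMT cGAMP 1 or 3. Sema6b was -0.64 (adjusted p = 0.0235) and -0.53 and -0.58 without the 2 libraries that ended its call. Unc5b was -0.81 (adjusted p = 0.0255) and -0.71 to -0.81 without implanted PBS 1 or 2, implanted cGAMP 2 or 3, MMTV-PyMT PBS 1 or 3 or MMTV-PyMT cGAMP 2 or 3.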

How the results depend on the processing

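Under the 25 alternatives other than the 2-fold limit, 82 of the 132 calls of members held in all and 50 ended in at least 1. Calls of Sema5b rest on 22 alternatives, since it fell below the filter without any one of the normal libraries in which it reached 1 FPKM. The 2-fold limit kept 43 of the 132. The difference of Ntn1 between implanted and normal ECs under PBS became -0.02 with equal FPKM totals. The causes of the changes below were not tested. Counts are members higher and lower. Shares of all genes were counted for the main fit and the 2-fold limit only. The other counts of members in this section therefore have no share beside them. With the 2-fold limit, which keeps fewer genes by construction, cGAMP gave 1 and 1 in normal, 0 and 0 in MMTV-PyMT and 3 and 0 in implanted ECs, differences of effect 1 and 1 (MMTV-PyMT minus normal), 1 and 0 (implanted minus normal) and 2 and 0 (implanted minus MMTV-PyMT), and tissues 1 and 8, 7 and 7, and 10 and 0 in the same order. Lower counts with cGAMP became 9 in MMTV-PyMT ECs (voom), and 15 (quantile), 18 (equal totals) and 21 (voom) in implanted ECs. For differences of effect, higher counts became 1 (equal totals) and 2 (voom) in MMTV-PyMT minus normal, 1 (pseudocount of 0.1, equal totals, voom) in the other comparisons, and lower counts 5 (equal totals, voom) in implanted minus normal and 7 (quantile) and 8 (voom) in implanted minus MMTV-PyMT. Between tissues with equal totals, lower became 21 in MMTV-PyMT minus normal and higher 10 in implanted minus normal.

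Leaving out 1 library gave, with cGAMP, 2 to 4 higher and 5 to 9 lower members in normal, 0 to 7 and 2 to 4 in MMTV-PyMT and 7 to 11 and 5 to 10 in implanted ECs. Differences of effect gave 1 to 6 and 2 to 2, 1 to 5 and 2 to 4, and 1 to 3 and 1 to 4. Tissues gave 9 to 10 and 10 to 15, 14 to 19 and 9 to 14, and 16 to 19 and 4 to 10. The lower count in normal ECs was 5 without normal cGAMP 1, that in implanted ECs 5 without implanted PBS 1, and that of implanted minus MMTV-PyMT ECs under PBS 4 without implanted PBS 2 or MMTV-PyMT PBS 3 and 5 without MMTV-PyMT PBS 2. A group left with 2 libraries was assumed to vary like the others.

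Correlations of deviations between PBS and cGAMP libraries ran from -0.291 to 0.263 for the same replicate number and from -0.333 to 0.303 for different numbers. Deviations within groups of 3 libraries cannot decide whether the replicate numbers pair the libraries. With the replicate block, higher differences of effect in MMTV-PyMT minus normal ECs became 2, and calls over all genes went from 4458 to 4207 with cGAMP in normal ECs and from 7894 to 7753 between MMTV-PyMT and normal ECs under PBS. Members at or below 1 FPKM, such as Sema5b with as few as 2 reads, allow only coarse values at this depth.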
